A study of Bos taurus with 6 samples.

Results

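The genes described here were 7 markers of mesothelium, MSLN, WT1, UPK1B, UPK3B, LRRN4, PDPN and CALB2, which were selected by their symbols from a table of 17663 genes. MSLN, WT1, UPK1B, UPK3B and PDPN, 5 of the 7, had values, and LRRN4 and CALB2 were not analysed here. A filter on low counts asked for a mean of at least 0.5 CPM (counts scaled to a library total of 1e6) over the 6 libraries, and 4 of these 5 genes passed it, as did 12609 genes in all. WT1 failed the filter, and UPK1B passed it only through a single library. The difference between the groups in these same libraries was known when the 7 genes were named, so their values are a description and carry no test.

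Mesothelium is the flat cell layer that lines the pleural, pericardial and peritoneal cavities and covers the organs inside them. Its cells come from mesoderm, yet they hold keratins and tight junctions as epithelia do, and vimentin as fibroblasts do. In the fetus, mesothelial cells can leave the surface and give rise to fibroblasts and smooth muscle of the underlying tissue.

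RNA was sequenced from bovine fetal fibroblasts (bEFs), the cells that build connective tissue, in primary culture from fetuses aged 50–60 days. The FT group was 3 fat-1 transgenic fetuses, carrying a nematode gene for an enzyme that makes n-3 from n-6 fatty acids, and the WT group was 3 wild-type Luxi fetuses. The cultures came from the trunk without its skeleton and viscera, and each fetus gave 1 library. The promoter of the transgene and the breed of the FT fetuses were not given in the sources used here. Total counts were 63366834 in FT_1, 48167642 in FT_2, 54204446 in FT_3, 69777641 in WT_1, 51310741 in WT_2 and 54271927 in WT_3.

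FT_1 stood apart from all other libraries. The biological coefficient of variation, which is the spread of a gene's level between libraries beyond counting error, was 8.25% between FT_2 and FT_3 and 9.71–13.0% between pairs of WT libraries. Between FT_1 and FT_2 it was 60.0%, and between FT_1 and FT_3 60.6%. FT_2 and FT_3 lay closer to the WT libraries, at 47.8–50.8%, than to FT_1. Of the 12609 genes tested, 1060 (8.41%) were over 2-fold higher in FT_1 than in both FT_2 and FT_3, and 960 (7.61%) were over 2-fold lower. The main results are therefore given with FT_1 and without it. In bulk RNA, fewer cells of a type and less RNA per cell cannot be told apart.

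MSLN was the one marker of the 5 whose lowest FT value lay above its highest WT value, PDPN was abundant in both groups, and UPK1B, UPK3B and WT1 were low or near 0 in most libraries. MSLN encodes mesothelin, a glycoprotein anchored to the cell surface by a lipid. Its FPKM (fragments scaled by gene length and library total, so that genes can be compared with each other) was 199, 44.9 and 46.2 in FT_1 to FT_3. In the WT libraries it was 2.08, 3.18 and 3.06. The groups did not overlap, and FT_1 stood well above the other FT libraries, at 4.32 times the CPM of FT_2 and 4.17 times that of FT_3. The MSLN counts behind these levels were 20140, 3457 and 4002 in FT and 233, 261 and 265 in WT. The ratio of CPM between single libraries ran from 15.7 (FT_2 to WT_2, 95% interval 12.3–20.6) to 104 (FT_1 to WT_1, 80.3–137). These intervals cover counting error only. MSLN stood at or above 98.3% of all 17663 genes in FT_1 by FPKM, 92.1% in FT_2 and 92.4% in FT_3, and at or above 43.2–48.2% in WT. The mean FPKM was 96.6 ± 88.4 (SD, n = 3) in FT and 2.77 ± 0.603 in WT, and the log2 fold change was 5.26 ± 0.75 (SE). Without FT_1 the MSLN log2 fold change was 4.21 ± 0.15. Every FT library lay above every WT library in 3669 of the 12609 genes tested, 29.1%, so a gap of this kind was common in these data.

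**Figure D1:**
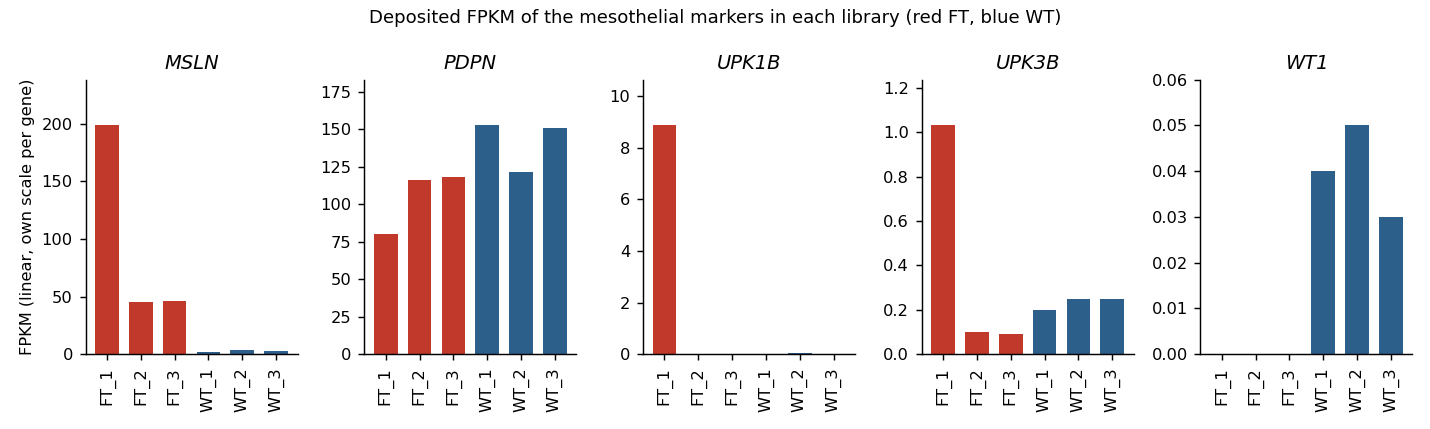
Deposited FPKM (linear axis, own scale for each gene) of the 5 markers with values, 1 bar per library, red for FT and blue for WT. MSLN was high in all 3 FT bars, PDPN was high in all 6, UPK1B stood at 8.86 in FT_1 alone, UPK3B peaked at 1.03 in FT_1, and WT1 did not pass 0.05.

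PDPN encodes podoplanin, a mucin-like membrane protein of mesothelium, lymphatic endothelium and many activated or fetal fibroblasts. Its FPKM was 79.9, 116 and 118 in FT_1, FT_2 and FT_3 and 152, 121 and 151 in WT_1, WT_2 and WT_3. On the FPKM scale all FT libraries were below all WT libraries. On the CPM scale the groups overlapped, since FT_2 and FT_3 were 1.07 and 1.10 times as high as WT_2. The PDPN counts were 14719, 16258 and 18605 in FT and 30724, 18006 and 23579 in WT. The log2 fold change was -0.27 ± 0.19, and -0.10 ± 0.10 without FT_1, so most of the small difference came with FT_1, the library lowest in PDPN. PDPN stood at or above 95.8–97.5% of all genes in each of the 6 libraries, and in WT it was the most abundant of the 5 markers by a wide margin.

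UPK1B encodes uroplakin 1b, a tetraspanin of the bladder surface that mesothelium also makes. It had 1211 counts in FT_1 (FPKM 8.86), 4 counts in WT_2 (0.03), and 0 counts in FT_2, FT_3, WT_1 and WT_3. UPK1B was thus a feature of 1 library and not of the FT group. Low counts in the table fell most often on 4 (500 genes had 4 counts in FT_1, 163 had 3 and 98 had 5), so 1 fragment may add more than 1 count, and the floor was set at 3 such steps, 12 counts per library. Against that floor UPK1B was at least 74.9-fold higher in FT_1 than in FT_2, 83.5-fold higher than in FT_3, 121-fold higher than in WT_1 and 93.6-fold higher than in WT_3. Against WT_2, whose 4 counts were also under the floor, it was at least 88.9-fold higher. Without FT_1 both groups were at or under the floor, and no fold change is given.

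UPK3B encodes uroplakin 3b, a partner of the tetraspanin uroplakins and among the genes most restricted to mesothelium in adult tissues. Its FPKM was 1.03, 0.10 and 0.09 in FT_1 to FT_3, and 0.20, 0.25 and 0.25 in WT. FT_1 was the highest library and FT_2 and FT_3 were the lowest, so the WT libraries lay between the FT libraries. The counts were 154, 12 and 12 in FT and 34, 30 and 32 in WT, only a few fragments in FT_2 and FT_3. The log2 fold change of UPK3B turned from 0.93 ± 0.99 with FT_1 to -1.07 ± 0.54 without it, where both FT libraries were at the floor. Single ratios of FT_2 or FT_3 to a WT library had 95% intervals that held 1, for example 0.475 (0.0761–1.86) for FT_2 to WT_2. Each interval sets 1 library against 1 on a few fragments, so the intervals cannot decide whether these libraries differed.

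WT1 encodes a zinc finger transcription factor that mesothelium keeps from the fetus into the adult. It had 0 counts in all 3 FT libraries and 7, 6 and 4 counts in WT_1, WT_2 and WT_3, or FPKM of 0.04, 0.05 and 0.03. All 6 values were under the floor of 12 counts, so WT1 was at or near 0 in both groups and no fold change is given.

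By mean FPKM the order in FT was PDPN (105 ± 21.6, SD), MSLN (96.6 ± 88.4), UPK1B (2.95 ± 5.12), UPK3B (0.407 ± 0.540) and WT1 (0). In FT, PDPN and MSLN did not differ beyond their spread, nor did UPK1B, UPK3B and WT1 from each other. In WT the order was PDPN (141 ± 17.4), MSLN (2.77 ± 0.603), UPK3B (0.233 ± 0.0289), WT1 (0.04 ± 0.01) and UPK1B (0.01 ± 0.0173), and WT1 and UPK1B were both under the floor. FT_1 alone held MSLN above PDPN. The median log2 fold change of the 4 markers that passed the filter was 3.10, or 2.99 with UPK1B at its bound against the floor, and over the other 3 it was the value of UPK3B, 0.93, against 0.04 for all genes tested. Without FT_1 it was -0.59, or -0.10 over the 3 of them left when UPK1B, then under the floor, was set aside. The name mesothelial is therefore used here for the list of genes, and what the cells were was not tested. WT1 was near 0 in all 6 libraries, UPK1B was found above the floor in 1, and PDPN, which was high in all 6, differed little between the groups while MSLN differed much.

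The markers lay on 4 chromosomes, in the coordinates of the deposited table, whose bovine build was not given in the sources used here. MSLN (ENSBTAG00000000177, chromosome 25, 650311 to 653932, plus strand) and UPK3B (ENSBTAG00000021430, chromosome 25, 34504084 to 34509114, plus strand) shared a chromosome but were far apart. UPK1B (ENSBTAG00000009014) was on chromosome 1 from 63981593 to 64010650 on the plus strand, WT1 (ENSBTAG00000047268) on chromosome 15 from 63118358 to 63168835 on the minus strand, and PDPN (ENSBTAG00000001788) on chromosome 16 from 54008203 to 54043523 on the minus strand. None of the 5 overlapped another gene of the table. The gene before MSLN, CIAO3, which serves iron-sulfur protein assembly, ended 14381 bp away and was not called, with a log2 fold change of 0.50 (adjusted p = 0.00965 by edgeR's quasi-likelihood test with Benjamini-Hochberg adjustment). The gene after MSLN, ENSBTAG00000033580, began 436 bp away on the minus strand and held 7, 4 and 0 counts in FT and 0 in each WT library, so the high MSLN count was not shared by it. DTX2, 2869 bp before UPK3B, B4GALT4, 8491 bp after UPK1B, and PRDM2, 86295 bp before PDPN, were not called either. These neighbours were named for their position. In the gene ontology terms of the table, UPK1B, UPK3B and PDPN shared membrane and integral component of membrane, MSLN had cell surface and cell-matrix adhesion, and WT1 had nucleus and transcription terms.

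The genes with the most similar profile differed for each marker, and likeness was measured as the root mean square distance between centred log2(CPM + 0.5) values over the 6 libraries. Nearest to MSLN were ANO1 (distance 0.199), a calcium-activated chloride channel, LAMA5 (0.355), a laminin chain of basement membranes, and IGFBP7 (0.381), a secreted binder of growth factors. ANO1 had FPKM of 14.1, 2.58 and 2.41 in FT and 0.04, 0.08 and 0.04 in WT, the same order of FT_1, then the other FT libraries, then WT. Nearest to UPK1B were RFLNA (0.111), TFAP2B (0.122) and LMX1B (0.139), of which the last 2 are developmental transcription factors. All 3 were high in FT_1 alone, with FPKM of 17.7, 4.50 and 4.09 there and at most 0.18 elsewhere. Nearest to UPK3B were NFKBIA (0.0785), the inhibitor of NF-kB, AIF1L (0.114), an actin-bundling protein, and CCN2 (0.115), a matricellular protein. UPK3B CPM was 0.24–0.56 in every library but FT_1, near the 0.5 added. The offset therefore narrows its profile, and its likeness to these more abundant genes depends on it. CCN2 FPKM was 2030, 545 and 529 in FT_1 to FT_3, and 703–748 in WT, so it too placed WT between the FT libraries. Nearest to PDPN were CRYBG3 (0.0498), RBCK1 (0.0559) and SLF1 (0.0620), which had their lowest FPKM in FT_1 and differed by at most about 2-fold between libraries. Likeness over 6 libraries, of which 1 stands apart, is a description of these libraries only.

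**Figure D2:**
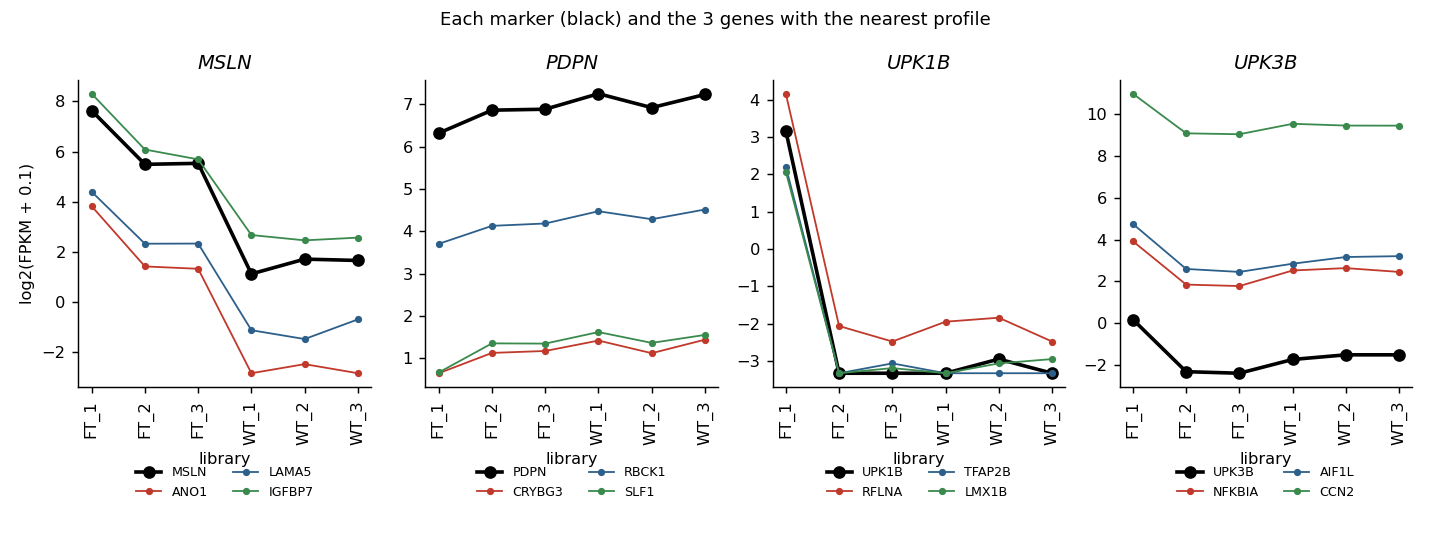
FPKM on a log2 scale with 0.1 added, by library, of MSLN, PDPN, UPK1B and UPK3B (thick black) and the 3 genes nearest to each (thin lines). FT_1 was the highest library in the MSLN, UPK1B and UPK3B panels and the lowest in the PDPN panel.

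Other genes known from mesothelium were called higher in FT more often than lower, and as many again were not called. Of 35 such genes, 31 were analysed and 22 passed the filter. By edgeR's quasi-likelihood test with Benjamini-Hochberg adjustment (a call needs an adjusted p below 0.05 together with a log2 fold change beyond 1 in either direction), 10 of the 22 were higher in FT, 1 was lower and 11 were not called. Among all 12609 genes tested, 1064 (8.44%) were higher and 942 (7.47%) lower. Without FT_1, 13 of the 22 were higher and 2 lower, against 1345 (10.7%) and 1406 (11.2%) of all genes. Every FT library lay above every WT library for 14 of the 22 and below for 2, against 29.1% and 29.8% of all genes. KRT7, KRT8, KRT18, KRT19, CLDN1, RSPO1 and BNC1, 7 of the 22, passed the filter through FT alone, as did 465 of all genes, and a gene that passes in this way can hardly be lower in FT. Over the 15 that reached a mean of 0.5 CPM in each group, edgeR called 7 higher and 1 lower, against 928 (7.83%) and 822 (6.94%) of 11848 genes, and 9 lay above WT in every FT library and 2 below. The lists were chosen with earlier results of these data known, so the comparison with all genes is a description. The median log2 fold change of the 22 was 2.62 (2.39 with genes under the floor in WT at their bounds, and 1.15 over the 15 that passed in each group), and 1.27 without FT_1, while that of all genes was 0.04 and -0.01. The 31 analysed genes had a summed FPKM of 1481, 421 and 399 in FT_1 to FT_3, and 309, 286 and 338 in WT. EZR, a linker of membrane and actin, was the most abundant in WT, and C3 in FT_1. FT_1 was over 2-fold above both other FT libraries in 10 of the 22 and over 2-fold below in 3, against 8.41% and 7.61% of all genes. With scaling by total count alone, the share of called genes that were higher moved from 53.0% to 39.6% and the median of all genes from 0.04 to -0.10, and 9 of the 22 were called higher.

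**Figure D3:**
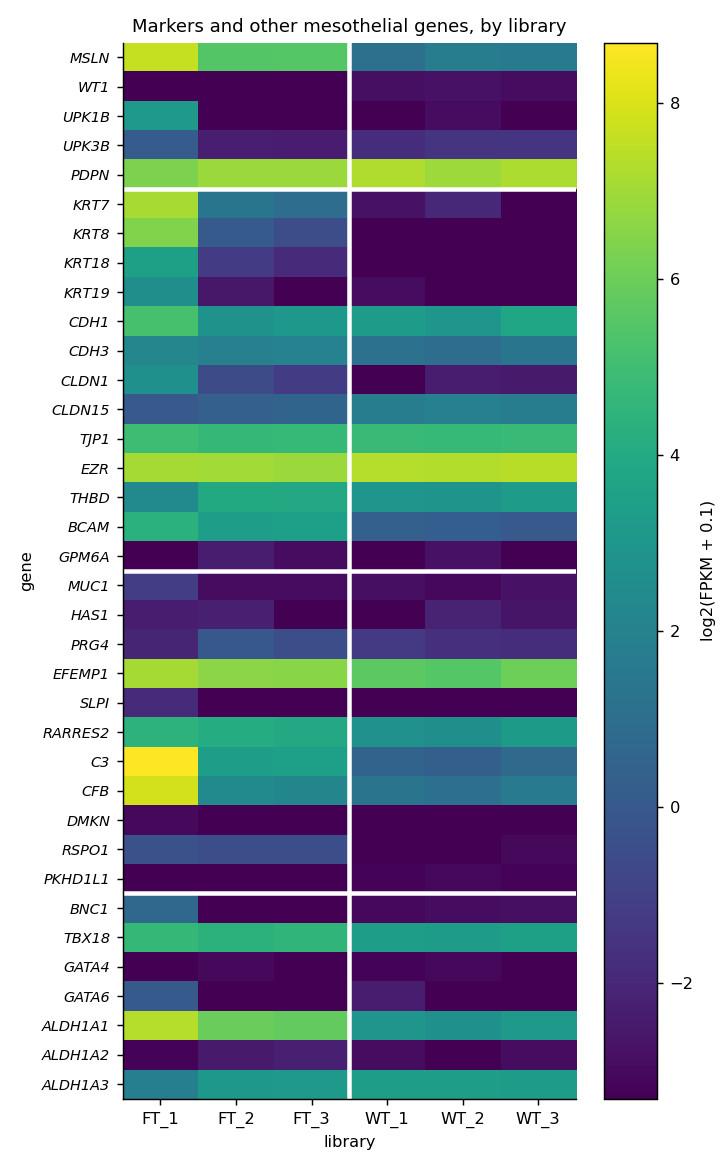
FPKM of the 5 markers (top block) and the 31 other mesothelial genes analysed (keratins and junctions, surface coat and secreted proteins, transcription factors and retinoid enzymes), as log2(FPKM + 0.1), with FT libraries left of the white line and WT right of it. The column of FT_1 holds the brightest cells of KRT7, KRT8, C3 and CFB, while WT1, GPM6A, GATA4 and ALDH1A2 are dark in all 6 columns.

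Among keratins, junction and apical surface genes, 12 of the 13 analysed passed the filter, and KRT7, CDH3, CLDN1 and BCAM were higher in FT while CLDN15 was lower. KRT7, a keratin of simple epithelia and mesothelium, had FPKM of 138, 2.48 and 1.85 in FT and 0.05, 0.15 and 0 in WT. FT_1 held nearly all of it, yet FT_2 and FT_3 were also above WT. The log2 fold change was 9.53 ± 2.5 (adjusted p = 0.0278, edgeR's quasi-likelihood test), and 5.11 ± 0.64 without FT_1 (adjusted p = 6.34e-05, the same test). Both were fitted on 7, 14 and 0 counts in WT_1, WT_2 and WT_3, where only WT_2 passed the floor of 12. The size of the fold is therefore uncertain. KRT8 and KRT18, the keratin pair of simple epithelia, were at 0 counts in all WT libraries. KRT8 FPKM was 84.1, 0.95 and 0.61 in FT, at least 1159-fold, 13.4-fold and 8.62-fold above the floor in WT. KRT18 FPKM was 11.2, 0.34 and 0.18, at least 113-fold, 3.54-fold and 1.88-fold above it. Neither was called in the test of all 6 libraries (adjusted p = 0.0731 and 0.0603 by edgeR), and both were called without it (adjusted p = 2.91e-05 and 0.00143 by edgeR). KRT19 had 640, 6 and 0 counts in FT and 4, 0 and 0 in WT and was not called (adjusted p = 0.0878 by edgeR, and 0.504 without FT_1). CDH1, the epithelial cadherin, had FPKM of 36.3, 7.11 and 8.41 in FT and 10.0, 7.83 and 13.9 in WT. Its log2 fold change was 0.85 ± 0.67, not called, and -0.28 ± 0.20 without FT_1. GPM6A, a membrane glycoprotein of mesothelium and neurons, had at most 12 counts in any library, and NKAIN4 was not analysed here.

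BCAM is a laminin receptor of the cell surface. Its FPKM was 20.1, 10.5 and 11.1 in FT and 1.18, 1.12 and 0.93 in WT, a log2 fold change of 3.83 ± 0.30 (adjusted p = 8.66e-04 by edgeR). Without FT_1 the BCAM log2 fold change was 3.48 ± 0.12. CLDN1, a tight junction claudin, had FPKM of 6.35, 0.56 and 0.32 in FT and 0, 0.09 and 0.08 in WT, at least 42.1-fold, 3.87-fold and 2.28-fold above the floor (adjusted p = 0.0457 by edgeR, and 0.0108 without FT_1). CDH3, placental cadherin, was 4.58, 3.69 and 3.87 in FT and 2.21, 1.86 and 2.42 in WT. Its log2 fold change lay at the threshold, 1.06 with FT_1 and 0.97 without, so the call was lost there. CLDN15, a claudin that forms cation pores and is found in mesothelium, went the other way. Its FPKM was 0.92, 1.19 and 1.36 in FT and 3.21, 3.65 and 3.18 in WT, a log2 fold change of -1.37 ± 0.24, and -1.21 without FT_1. THBD, the thrombin receptor thrombomodulin, was lowest in FT_1 at 5.19 and was called only without it, with a log2 fold change of 1.03. The median of these 12 genes was 2.45, also with genes at 0 or under the floor in WT at their bounds, but 0.67 over the 7 that passed the filter in each group, and 1.26 without FT_1, or 1.03 over the 11 of them above the floor there.

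The calls of KRT7 and CLDN1 also depended on the number of WT libraries. By edgeR, the adjusted p of KRT7 was 0.105, 0.0899 and 0.0952 without WT_1, WT_2 or WT_3, and that of CLDN1 was 0.106, 0.126 and 0.124, none of them under 0.05. CLDN1 was also not called without FT_2 (adjusted p = 0.0542 by edgeR), and the CDH3 log2 fold change was 0.96 without WT_2. BCAM and CLDN15 kept their calls when any 1 library was left out.

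Among surface coat and secreted proteins, 6 of 11 analysed passed the filter, and EFEMP1, RARRES2, C3 and RSPO1 were higher in FT with none lower. C3, the central complement component, had FPKM of 413, 10.5 and 10.9 in FT and 1.33, 1.16 and 1.70 in WT. The log2 fold change was 6.83 ± 1.81 (adjusted p = 0.0286 by edgeR) and 3.10 ± 0.14 without FT_1. CFB, complement factor B, was 235, 5.22 and 4.42 in FT and 2.39, 1.97 and 2.87 in WT. It was not called with all 6 libraries (adjusted p = 0.0600 by edgeR). It was called without FT_1, at a log2 fold change of 1.16, and also without FT_2 or without FT_3. RARRES2, which encodes the attractant chemerin, and EFEMP1, a fibulin of the matrix, changed less and more evenly. RARRES2 FPKM was 21.5, 17.4 and 14.96 in FT and 6.56, 6.18 and 9.10 in WT, a log2 fold change of 1.45 ± 0.21, and 1.31 without FT_1. EFEMP1 FPKM was 135, 98.3 and 93.4 in FT and 51.2, 45.3 and 66.4 in WT, a log2 fold change of 1.15 ± 0.20 that fell under the threshold at 0.98 without FT_1. RSPO1, a Wnt enhancer made by mesothelium and gonad, had 126, 88 and 100 counts in FT and 0, 0 and 4 in WT, alike in all FT libraries (adjusted p = 0.00976 by edgeR). Against the floor in WT that is at least 10.3-fold, 9.73-fold and 9.91-fold in FT_1, FT_2 and FT_3. PRG4, a lubricant, had FPKM of 0.14, 0.88 and 0.65 in FT and 0.31, 0.22 and 0.20 in WT and was called only without FT_1. MUC1, HAS1, SLPI, DMKN and PKHD1L1 were too low to test, and MUC16 and ITLN1 were not analysed here. The median log2 fold change of the 6 was 3.33, or 2.39 with RSPO1 at its bound and 1.45 over the 5 that passed the filter in each group, and 1.55 without FT_1. The C3 call was lost without WT_1, WT_2 or WT_3 (adjusted p = 0.105, 0.108 and 0.0964 by edgeR), and the RARRES2 and RSPO1 calls were kept whichever library was left out.

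Among transcription factors and retinoic acid enzymes, 4 of 7 analysed passed the filter, and TBX18 and ALDH1A1 were higher in FT. ALDH1A1, which oxidises retinal to retinoic acid, had FPKM of 165, 62.2 and 55.4 in FT and 7.53, 6.39 and 8.68 in WT. Its log2 fold change was 3.79 ± 0.48 (adjusted p = 0.00269 by edgeR) and 3.13 ± 0.12 without FT_1. TBX18, a T-box factor of epicardium and of mesenchyme, was 25.3, 20.8 and 23.4 in FT and 10.6, 9.86 and 11.3 in WT. FT_1 was close to the other FT libraries here, and the log2 fold change was 1.28 with it and 1.22 without. BNC1, a zinc finger protein that marks mesothelium and basal epithelium, had 494 counts in FT_1, 0 in FT_2 and FT_3, and 8, 8 and 12 in WT. BNC1 was not called with FT_1 (adjusted p = 0.222 by edgeR). Without FT_1 the test called it lower, but both groups were then at or under the floor and no fold change is given. ALDH1A2, the retinoic acid enzyme of fetal mesothelium, had at most 25 counts in any library, and GATA4 had at most 4. GATA6 had 113 counts in FT_1 and at most 12 in any other library. TCF21 was not analysed here. ALDH1A3 FPKM was 3.50, 8.33 and 9.06 in FT and 9.83–10.6 in WT and was not called. The median log2 fold change of the 4 tested genes was 2.53, or 2.52 with BNC1 at its bound and 1.28 over the 3 that passed the filter in each group, and 0.58 without FT_1, or 1.22 over the 3 left when BNC1 was set aside.

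**Figure D4:**
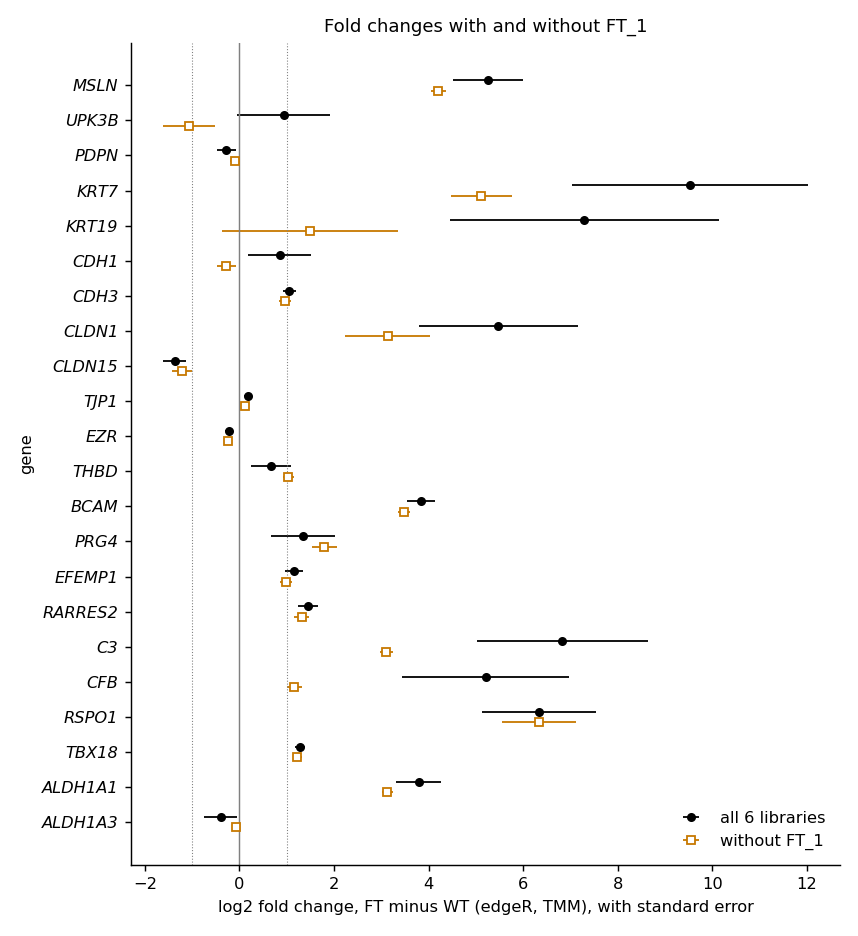
Log2 fold change of FT over WT (points, with SE as bars) for the tested markers and other mesothelial genes, with all 6 libraries (black) and without FT_1 (open orange squares), and dotted lines at a log2 fold change of 1 in either direction. UPK1B, KRT8, KRT18 and BNC1 are not drawn, since they were at 0 in WT or in FT_2 and FT_3. The values of CLDN1, KRT19 and RSPO1 are fitted on WT counts under the floor, and UPK3B and CDH1 cross 0 when FT_1 is left out, and MSLN, BCAM and ALDH1A1 do not.

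Among known targets and cofactors of WT1, PODXL and SNAI1 were called higher in FT, with FT_1 and without it. SNAI1, a repressor of epithelial genes, had FPKM of 16.4, 13.0 and 10.9 in FT and 4.06, 3.67 and 3.55 in WT, a log2 fold change of 1.98 ± 0.16 (adjusted p = 9.13e-04 by edgeR), and 1.83 without FT_1. PODXL, which encodes podocalyxin, an anti-adhesive sialomucin, had 295, 11 and 38 counts in FT and 4, 0 and 0 in WT (adjusted p = 0.0299 by edgeR). PODXL passed the filter through FT alone, so it could hardly be called lower. Over the 6 genes of this list that passed in each group, edgeR called 1 higher and 1 lower. SNAI1 kept its call whichever library was left out. PODXL lost it without WT_1, WT_2 or WT_3 (adjusted p = 0.0758, 0.10 and 0.0952 by edgeR). BASP1, a corepressor that binds WT1, was abundant in all libraries, with FPKM of 42.9, 63.2 and 59.3 in FT and 81.4, 82.8 and 81.8 in WT, and was not called (log2 fold change -0.42 ± 0.16, and -0.26 without FT_1).

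None of the 5 tested binding partners of podoplanin was called, against 8.44% higher and 7.47% lower of all genes. In a list this short, 0 calls is near those shares and says little about the partners. The 5 tested partners, CD9, CD44, EZR, RDX and LGALS8, had log2 fold changes from -0.63 to -0.05 (CD44, with FT_1 its highest library), with a median of -0.43, and -0.28 without FT_1. edgeR called 0 of them with and without FT_1, as did an unadjusted p under 0.05, DESeq2 and limma, since no log2 fold change passed 1 in size. The most abundant was CD9, a tetraspanin, with FPKM of 327, 433 and 454 in FT and 620, 604 and 595 in WT. LGALS8 had a log2 fold change of -0.63, the furthest from 0 of the 5 (adjusted p = 0.0231 by edgeR). CD9 also lay under every WT library in every FT library, as did 4 of the 5 partners against 29.8% of all genes. CLEC1B and CCL21 were not analysed here.

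Family relatives of the markers gave 1 call in each direction, LRRN2 higher and LRRN3 lower, among the 4 of 7 that passed the filter, against 8.44% higher and 7.47% lower of all genes, with a median log2 fold change of -0.59, and -0.21 without FT_1. LRRN2 and LRRN3 are leucine-rich repeat membrane proteins related to LRRN4. LRRN3 FPKM was 1.55, 4.85 and 3.51 in FT and 18.1, 17.1 and 14.2 in WT, a log2 fold change of -2.16 ± 0.42 (adjusted p = 0.0103 by edgeR), and -1.81 without FT_1. LRRN2 FPKM was 8.91, 4 and 4.38 in FT and 2.43, 2.35 and 2.32 in WT, with a log2 fold change of 1.43 that came to 0.99 without FT_1. Its call was also lost without WT_1, WT_2 or WT_3 (adjusted p = 0.0628, 0.0651 and 0.0625 by edgeR). LRRN4CL, whose product resembles that of LRRN4, led the list in WT but not in FT, where EGR1 was higher. Its FPKM was 11.03, 66.3 and 61.1 in FT and 190, 200 and 181 in WT, and it was not called with all 6 libraries (adjusted p = 0.0610 by edgeR), while DESeq2, limma, and edgeR without FT_1 called it lower. EGR1, an immediate early gene with zinc fingers like those of WT1, was 19.0, 122 and 124 in FT and 56.3, 57.1 and 68.4 in WT and was called higher only without FT_1, at 1.19. UPK1A and UPK2, uroplakins of bladder lining, and UPK3BL1, a relative of UPK3B, had at most 17 counts in any library.

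Markers of other cell types moved with FT_1. The 14 fibroblast markers were abundant in all libraries, with a summed FPKM of 7316 in FT_1, 17522 in FT_2, 17281 in FT_3, 18399 in WT_1, 17788 in WT_2 and 17954 in WT_3. VIM was the most abundant in WT and FT_3 and DCN in FT_1 and FT_2, and none was at 0. In FT_1, 7 of the 14 were over 2-fold lower than in both other FT libraries, against 7.61% of all genes. Of the 14, 1, POSTN, was over 2-fold higher there, against 8.41%. PDGFRA, a growth factor receptor of fibroblasts, was the 1 gene of the 14 called (higher, log2 fold change 1.06 with FT_1 and 0.88 without). That is 7.14% of the list, near the 8.44% of all genes called higher, and the median of the 14 was 0.07. Without FT_1, PDGFRB, DCN and LUM were called higher instead, against 10.7% of all genes, and the median was 0.23. Surface epithelium markers went the other way, with a summed FPKM of 406 in FT_1, 15.5 in FT_2, 15.2 in FT_3, 10.4 in WT_1, 8.07 in WT_2 and 14.3 in WT_3. Of the 11 markers, 7 were tested, of which 6, all but CDH1, passed the filter through FT alone. KRT15 and CLDN4 were called higher, against 8.44% of all genes. In FT_1, 6 of the 7 were over 2-fold above both other FT libraries, against 8.41% of all genes. The median log2 fold change of the 7 was 6.11, and without FT_1, where KRT5 and KRT14 were called too, 4.22, or 1.34 with genes at their bound. KRT5, a keratin of basal epithelium, was the most abundant in FT_1, and CDH1 in each other library. KRT5 had FPKM of 172, 2.57 and 1.63 in FT_1 to FT_3 with 0 counts in WT, at least 2298-fold, 35.3-fold and 22.6-fold above the floor. EPCAM, the defining surface protein of epithelia, had 58 counts in FT_1 and 0 in all other libraries, and GRHL2 had 4 in FT_1 alone. CLDN4 was even over the FT libraries, at 3.65, 3.39 and 3.82 against 0.20, 0.09 and 0.33 in WT (log2 fold change 4.22 ± 0.49 with FT_1 and 4.22 without it, adjusted p = 0.00205 by edgeR). The part of these cells in the MSLN, UPK1B, UPK3B, KRT7, KRT8 and C3 values was not tested, in FT_1 or in FT_2 and FT_3, where KRT5 and KRT14 were also above WT. KRT15 was at least 383-fold above the floor in FT_1 but 3.87-fold and 1.19-fold in FT_2 and FT_3, and it was called without FT_1 too (adjusted p = 0.00717 by edgeR). Its call was lost without WT_1, WT_2 or WT_3 (adjusted p = 0.144, 0.143 and 0.166 by edgeR).

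**Figure D5:**
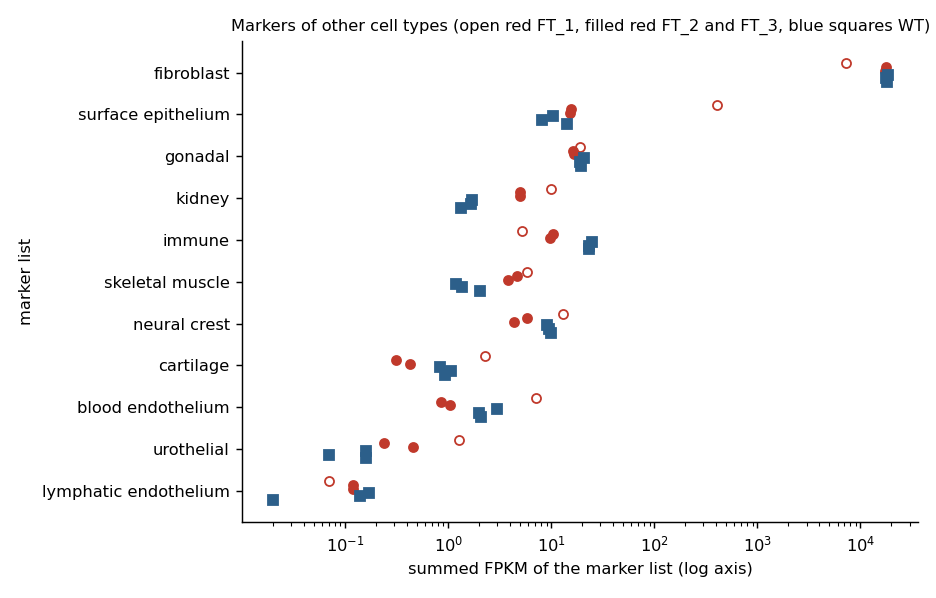
Summed FPKM (log axis) of each list of markers of other cell types, 1 point per library, with FT_1 as open red circles, FT_2 and FT_3 as filled red circles and WT as blue squares. FT_1 lies left of all others for fibroblast (7316) and right of all others for surface epithelium (406).

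PDPN and uroplakins are also known from lymphatic endothelium and bladder lining, and the markers of both were near 0. Of the lymphatic markers, PROX1 and LYVE1 had at most 16 counts in any library and none was tested, with a summed FPKM of 0.02–0.17. Urothelial markers summed to 1.28 in FT_1, 0.24 in FT_2, 0.46 in FT_3 and 0.07–0.16 in WT, FOXA1 was the most abundant in FT but near 0 in WT, and GRHL3, the 1 gene tested, was not called by edgeR, DESeq2 or an unadjusted p under 0.05, and was too low for limma. Under the filterByExpr filter, which let FOXA1 in, edgeR called 1 urothelial gene higher. Blood endothelium summed to 7.11 in FT_1, 0.86 in FT_2, 1.04 in FT_3 and 1.99–2.97 in WT, with ERG, an endothelial and cartilage factor, at 6.03 in FT_1. CDH5 and KDR, which define endothelium, had at most 31 counts. Of the 4 tested genes, edgeR called 0, against 15.9% of all genes in either direction. DESeq2 and an unadjusted p under 0.05 also called 0, nor was ERG, the 1 abundant enough for limma, called there. Without FT_1, edgeR called ERG and PECAM1 lower, with ERG at a log2 fold change of -1.11. WT1, PAX2 and PAX8 also act together in fetal kidney. PAX2, PAX8 and SIX2, the 3 of 5 kidney genes that passed the filter, were all called higher, against 8.44% of all genes, though PAX2 passed the filter through FT alone, while SALL1 and LHX1 had at most 40 counts. PAX8 FPKM was 2.03, 2.90 and 2.84 in FT and 0.56, 0.98 and 0.53 in WT, a log2 fold change of 2.06 ± 0.36 (adjusted p = 0.00711 by edgeR), and 2.22 without FT_1. SIX2 was 7.55, 1.78 and 1.86 in FT and 1.08, 0.70 and 0.76 in WT, with a log2 fold change of 2.27 that came to 1.26 without FT_1, and PAX2 had 43, 59 and 68 counts in FT and 8, 0 and 0 in WT. The kidney genes summed to 9.93 in FT_1, 4.94 in FT_2, 4.96 in FT_3, 1.71 in WT_1, 1.68 in WT_2 and 1.32 in WT_3, and their part in the MSLN result was not tested. SIX2 was not called without WT_1, WT_2 or WT_3 (adjusted p = 0.0904, 0.124 and 0.116 by edgeR). PAX2 was not called without FT_2, FT_3, WT_2 or WT_3 (adjusted p = 0.0662, 0.0663, 0.0843 and 0.0785 by edgeR).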

How the data were processed

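RNA was measured in 3 FT and 3 WT libraries. The authors used HISAT for mapping, Perl scripts for merging, and StringTie and edgeR for levels. The submitters' processing notes list HISAT2 2.0, StringTie 1.3.0, Bowtie 0.12.2 and a mouse build, and no bovine build, counter or strand setting was given in the sources used here. The deposited FPKM values are scaled by gene length and library total and rounded to 2 decimals. The deposited counts are whole numbers per gene. They were fitted in R 4.3.3 with edgeR 4.0.16 (quasi-likelihood test, TMM scaling, mean CPM of at least 0.5, Benjamini-Hochberg adjustment over 12609 genes), and a call needed an adjusted p below 0.05 together with a log2 fold change beyond 1 in either direction. SEs were derived from the F statistic. All pairs of libraries differed beyond counting error. The members and lists were chosen with earlier results of these data known. Named genes were drawn from the markers, every called gene of a list or else its most abundant gene, KRT7, KRT8, KRT18, KRT19, BNC1, CDH1, MUC16 and ALDH1A2, and the 3 nearest profiles per marker, and the other genes named were chosen after their values were seen. Intervals and floors treat 4 counts as 1 fragment. Alternatives were other scalings, filters, DESeq2 1.42.0, limma 3.58.1 on log2 FPKM, a replicate block and leaving out each library. The code was tested on simulated data with a log2 fold change of 2 and the same spread in every library. That test does not cover data with a library that stands apart, as FT_1 did.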

Additional observations from a re-analysis of the deposited data

How the results depend on the processing

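MSLN was the 1 marker above WT in every FT library under each alternative run. The markers' median log2 fold change ran from -0.59 (without FT_1) to 3.49 as each library was left out, and could not be computed under filterByExpr or limma, where a marker was missing. Genes called higher ran from 688 to 1345 as each library was left out, and genes called lower from 677 to 1406. Other mesothelial genes called higher ran from 6 to 13 and called lower from 1 to 2. limma on log2(FPKM + 1) called 423 genes and 4 of the mesothelial genes higher, and limma on log2(FPKM + 0.1) called 671 and 6. The cause was not tested.

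FT and WT fetuses share only numbers (correlation of same-numbered deviations -0.0148, -0.0283 and 0.0434), so no pairing was used. With the replicate block, 876 genes were higher and 813 lower, 11 mesothelial genes were higher, and the markers' median was 2.43. UPK3B was -0.01 under the block. BNC1 was -0.87 under the block. As each library was left out, the log2 fold change of BNC1 ran from -6.13 to 4.68, with both groups at or under the floor at the low end. The range was -1.11 to 1.71 for ERG, -0.28 to 1.22 for CDH1, -0.11 to 6.09 for RFLNA, -0.69 to 7.54 for LMX1B, -0.58 to 0.84 for NFKBIA, -0.40 to 1.10 for AIF1L and -0.25 to 0.98 for CCN2. The low end came without FT_1 in each, where LMX1B was under the floor in both groups and RFLNA at or under it in FT. NFKBIA was -0.0218 under limma on log2(FPKM + 0.1). S100B ran from -0.75 without FT_1 to 0.12 without FT_3. UPK3B had no test, and none of the others was called with all 6 libraries.

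Counts divided by 4, chosen after seeing the data, gave 1073 genes higher and 980 lower. Counted over genes that reached the filter in each group, also chosen later, 928 were higher and 822 lower, with 7 and 1 of the mesothelial genes. Over all single-gene results and alternatives, 666 were labelled the same, 71 lost a call, 10 gained one, 12 values of tested genes changed sign, and 9 marker values moved by more than 1 SD, some of them across 0. Of 28 named genes called, 14 kept the call in every adjusted alternative that gave a p. ANO1, LAMA5 and IGFBP7 were among the 14. They were named for their likeness to MSLN over these same libraries, so their calls followed from that choice. DESeq2 gave no adjusted p for 11 of 46 named genes.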

Other observations

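Lists for further cell types gave few values in these cultures. In skeletal muscle, DES, which encodes the intermediate filament desmin, was called higher in FT, with FPKM of 5.74, 4.01 and 3.17 in FT and 0.07, 0 and 0 in WT (adjusted p = 0.00603 by edgeR). DES passed the filter through FT alone, and it kept that call whichever library was left out. MYF5, a myogenic factor, had FPKM of 0.03, 0.59 and 0.61 in FT and 1.06, 1.31 and 1.93 in WT and was called lower only without FT_1, so DES and MYF5 went in different directions. In immune cells, CD68, a lysosomal protein of macrophages, was lower, with FPKM of 0.77, 1.01 and 1.35 in FT and 3.02, 2.71 and 2.57 in WT (log2 fold change -1.25, and -1.06 without FT_1, adjusted p = 0.0198 by edgeR with all 6 libraries). The CD68 call was lost without FT_2, WT_1, WT_2 or WT_3 (adjusted p = 0.0613, 0.0781, 0.0637 and 0.0560 by edgeR). The immune list summed to 5.17 in FT_1, 10.3 in FT_2, 9.78 in FT_3 and 23.1–24.7 in WT, and LAPTM5 was its most abundant gene in every library but FT_1, where CD14 was.

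In cartilage, ACAN, the large aggregating proteoglycan, had FPKM of 0.03, 0.14 and 0.19 in FT and 0.66, 0.71 and 0.56 in WT, a log2 fold change of -2.26 (adjusted p = 0.0415 by edgeR) and -1.79 without FT_1. The ACAN call was lost without FT_2, WT_1, WT_2 or WT_3 (adjusted p = 0.0906, 0.109, 0.114 and 0.0926 by edgeR). SOX9, a chondrocyte factor and the other cartilage gene tested, had FPKM of 2.19, 0.17 and 0.24 in FT and 0.15, 0.35 and 0.37 in WT and was not called, so FT_1 was its highest library. EMX2, a factor of gonad and kidney, was the most abundant of the gonadal list and even across libraries, with FPKM of 17.1, 15.6 and 15.6 in FT and 20.2, 18.1 and 18.9 in WT. Of the other gonadal genes tested, CYP11A1, which passed the filter through FT alone, had 126, 20 and 37 counts in FT and 21, 4 and 19 in WT (log2 fold change 2.20). STAR went the other way, at -0.52. edgeR called 0 of the 3, against 15.9% of all genes in either direction. DESeq2 called 1 of the 3 higher, against 1252 of all 12609 genes, and an unadjusted p under 0.05 called 1, against 1287. S100B led the neural crest list at 12.9 in FT_1, 5.78 in FT_2, 4.29 in FT_3 and 9.11–9.92 in WT, and edgeR called neither EMX2 nor S100B.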
